A study of Mus musculus with 14 samples.

Results

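The genes described here encode the proteins of the mitochondrial ribosome, taken as every protein-coding gene whose GENCODE M21 symbol starts with Mrpl or Mrps and a digit. There were 78 such genes, 49 of the large subunit by symbol (Mrpl) and 29 of the small subunit (Mrps), among 14248 genes with a value in the files. They lie on 17 chromosomes. By their bacterial counterparts, 48 are of bacterial type and 29 are specific to mitochondria, and the remaining gene, Mrps36, is now known to encode a subunit of the oxoglutarate dehydrogenase complex. The mouse symbols Mrps18a and Mrps30 also carry a small-subunit name although structures of the mammalian mitoribosome place both proteins in the large subunit.

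The mitoribosome translates the few mRNAs of the mitochondrial genome, all of which encode membrane subunits of the oxidative phosphorylation complexes. Its ribosomal RNAs are made inside the organelle, whereas all of its proteins are encoded in the nucleus, translated in the cytosol and imported. The kinase mTOR controls the translation of many such mRNAs in the cytosol. It acts most strongly on mRNAs that start with a terminal oligopyrimidine tract, which includes nearly all mRNAs for cytosolic ribosomal proteins, and the mRNAs of mitochondrial ribosomal proteins are a known, weaker target.

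Mouse embryonic fibroblasts of strain C57BL/6J were profiled by Ribo-seq, which sequences the mRNA stretches that ribosomes protect (25 to 35 nt here), and by RNA-seq of fragmented RNA (40 to 60 nt), with 7 libraries for each. METTL3 knockdown (METTL3 writes N6-methyladenosine on mRNA) and ABCF1 knockdown (ABCF1 is a ribosome-associated ATPase) had 2 replicates per assay. The mTOR inhibitor Torin1, applied for 2 h at 250 nM, was measured in a single library of either assay. The control, labelled Scram, had 2 replicates per assay. Cycloheximide, which stalls ribosomes, was present at 100 µg/ml during washing and lysis, and the protocol names DMSO beside Torin1. The labels do not say which cells received Torin1, whether the knockdown and Scram cells received DMSO, or whether the replicates were separate cultures. The p-values therefore measure only the spread between these libraries, and Torin1 has no replicate. Translation that does not need eIF4F, the complex that binds the mRNA cap, is the question named in the series title. For differences, medians and counts, each knockdown was compared with the Scram library of the same number and Torin1 with Scram replicate 2. The limma tests instead compared each group with both Scram libraries of an assay. Differences printed with a limma p-value for Torin1 can therefore deviate from those against Scram replicate 2. All comparisons thus share the Scram libraries.

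The values implied 1764404 to 5155236 assigned reads per Ribo-seq library and 1197854 to 3802695 per RNA-seq library. Mettl3 was at 12.5% and 38.7% of Scram in Ribo-seq and at 29.0% and 77.6% in RNA-seq in replicates 1 and 2 of its knockdown. Abcf1 was at 35.2% and 50.4% in Ribo-seq and at 29.2% and 47.7% in RNA-seq in its own. Of 8 fibroblast markers 7 were listed, all but Lum, with summed RNA-seq levels of 1367 to 3251 RPKM. The summed endothelial, leukocyte and pluripotency markers reached at most 5.12 in RNA-seq and 14.7 in Ribo-seq, while epithelial markers, which include Krt8 and Krt18, summed to 31.1 to 65.0 in RNA-seq, and their Ribo-seq sums were between 65.8 and 261. The libraries fell into 2 sets. Replicate 1 libraries list transcripts from 1 read up, and replicate 2 and Torin1 libraries give a single transcript for a gene and start near 5 reads. In replicate 2 and Torin1 RNA-seq, Lars2 took 35.4 to 41.6% of the assigned reads and Tmem38b 8.21 to 10.9%. In replicate 1 RNA-seq they took 0% and at most 0.448%. Levels correlated at 0.923 to 0.973 within a set and 0.758 to 0.822 between sets in Ribo-seq, and at 0.861 to 0.967 and 0.630 to 0.719 in RNA-seq. In bulk samples, fewer cells and less RNA per cell cannot be told apart.

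Each gene was represented by the transcript with the highest mean RPKM, and this transcript was listed in all 14 libraries for 67 of the 78 members. A level below is RPKM scaled so that all libraries of an assay share 1 median over tested genes. A difference is in log2(scaled RPKM + 1), which understates the change of low genes. Ribo-seq values are per coding length and RNA-seq values per transcript length, the lengths at which they came out as whole reads. Genes listed in at least 0.5 of the libraries with a mean RPKM of at least 1 were tested, so that 69 members entered the Ribo-seq test (44 large, 25 small) and 70 the RNA-seq test. Of the others, the kept transcripts of Mrpl1, Mrpl24, Mrpl53, Mrps17 and Mrps18c had values only in replicate 1 libraries, and those of Mrpl55, Mrps12 and Mrps34 only in the second set. Mrpl20 had no Ribo-seq value for its kept transcript in replicate 1 libraries. The median member had 108 to 567 reads per Ribo-seq library and 20 to 81 per RNA-seq library. Processed pseudogenes of these genes can share reads with them, and no source used here gives the rule for such reads.

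With Torin1, ribosome occupancy of most mitoribosomal protein mRNAs was lower than in Scram, while the median of their RNA levels was close to Scram. In Ribo-seq 61 of 69 members (88.4%) were lower than in Scram replicate 2, against 49.8% of all 8986 genes tested. The median difference was -0.51 over members and 0.00 over all genes. At least 1.5-fold lower were 24 members (34.8%), against 14.8% of all genes, and 0 members were 1.5-fold higher, against 11.5%. In RNA-seq the members' median was -0.10, with quartiles of -0.40 and 0.16, and the median of all genes was -0.02. In that assay 39 of 70 members were lower (background 52.8%) and 31 higher (background 47.0%). The ratio of Ribo-seq to RNA-seq, or translational efficiency, had a median of -0.41, with 51 of 69 members lower (73.9%, background 47.7%).

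The Ribo-seq median was -0.46 for the large subunit, with 38 of 44 members lower, and -0.57 for the small subunit, with 23 of 25 lower. The difference between the subunits, 0.11, is small beside the members' quartiles of -0.67 and -0.20. With Mrps18a and Mrps30 counted in the large subunit and Mrps36 left out, as structures place them, the medians were -0.46 and -0.45. By symbol, the translational efficiency medians were -0.39 for the large and -0.41 for the small subunit, and the sign of this gap changed with the assignment by structure. In Ribo-seq, proteins of bacterial type had a median of -0.54 (41 members) and mitochondria-specific ones -0.31 (27 members). Their median coding lengths were 591 and 621 nt. The same measure was -2.08 over 59 cytosolic ribosomal protein genes, all of them lower.

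**Figure D1:**
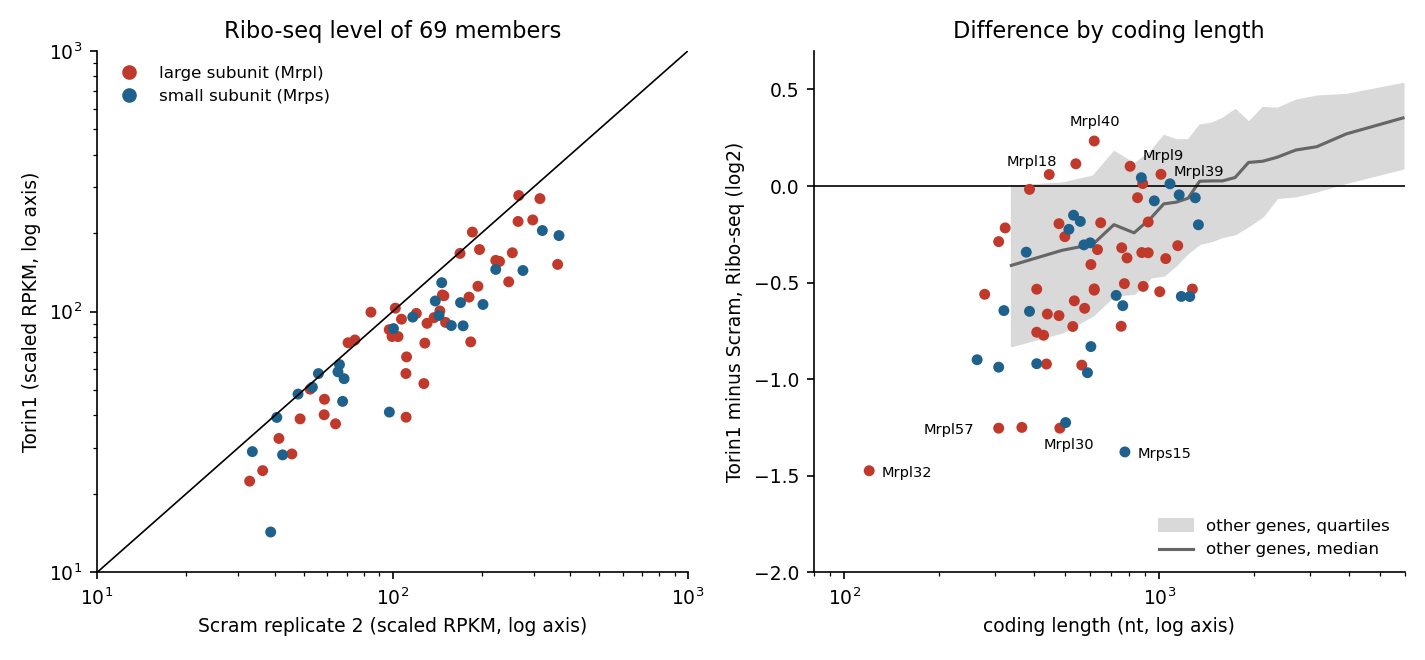
Left, Ribo-seq level of the 69 tested members in Torin1 (vertical) against Scram replicate 2 (horizontal), in scaled RPKM on log axes with the line of equality. Right, the log2 difference Torin1 minus Scram against coding length on a log axis, with the median and quartiles of genes other than members and cytosolic ribosomal proteins in 20 bins of equal size. In all, 61 members lie below equality, and short genes lie lower than long ones among members and other genes alike.

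Among members listed in every library, the lowest Torin1 differences were those of Mrpl32, Mrps15, Mrpl57 and Mrpl30. Mrpl32, whose product is matured by the mitochondrial m-AAA protease before it joins the large subunit, had 39.4 scaled RPKM in Torin1 and 111 in Scram replicate 2. Its other Ribo-seq libraries had 110 to 208 in METTL3 knockdown, 112 to 157 in ABCF1 knockdown and 236 in Scram replicate 1, so Torin1 was the lowest of all 7. The kept Mrpl32 transcript is annotated as a target of nonsense-mediated decay and has a coding length of 120 nt, so its values may not describe the protein-coding mRNA. They rest on 10 reads in Torin1 and 52 in Scram, a ratio of 0.354 with an exact 95% counting interval of 0.161 to 0.705. Such intervals cover counting error only and compare 2 libraries, not 2 conditions.

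Mrps15, a small-subunit protein of bacterial type, had 14.3 scaled RPKM in Torin1 and 38.7 in Scram replicate 2. Its other second-set libraries had 39.8 in METTL3 knockdown and 37.5 in ABCF1 knockdown, close to Scram. Mrpl57, a mitochondria-specific protein of the large subunit, had 76.5 in Torin1 and 184 in Scram replicate 2, with 203 to 294 in the METTL3 and 204 to 246 in the ABCF1 knockdown libraries. Mrpl30, of bacterial type, had 53.0 in Torin1 and 128 in Scram replicate 2, with 84.1 to 120 in the METTL3 and 110 to 146 in the ABCF1 knockdown. For each of the 4 genes the Torin1 library was the lowest of the 7, and the Torin1 over Scram ratio of levels was 0.354 to 0.416. The genes were picked for a low Torin1 difference, and replicate 1 libraries belong to the other set. Torin1 being lowest is therefore largely given by the choice and is no separate result. In RNA-seq Mrpl32 had 22.3 in Torin1 and 16.3 in Scram replicate 2, and Mrps15 had 13.7 in Torin1 and 15.0 in Scram. Mrpl57 had 6.46 in Torin1 and 8.37 in Scram, and Mrpl30 had 29.8 in Torin1 and 31.5 in Scram. No RNA level was lower to the degree of its Ribo-seq level, but these Torin1 RNA-seq values rest on 12 to 27 reads. The counting intervals of the RNA-seq and Ribo-seq ratios overlap for Mrpl32, Mrps15 and Mrpl57 and not for Mrpl30. The choice by Ribo-seq also favours a larger difference in that assay.

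The members with the highest Torin1 differences were Mrpl40, Mrpl18, Mrpl9 and Mrpl39. Mrpl40, a mitochondria-specific protein, had 99.5 scaled RPKM in Torin1 and 84.5 in Scram replicate 2, and its counting interval for the ratio, 0.937 to 1.48, includes 1. Mrpl18, the counterpart of the bacterial protein that binds 5S ribosomal RNA, had 202 in Torin1 and 186 in Scram. Mrpl9 had 76.0 in Torin1 and 70.7 in Scram, and Mrpl39 had 77.8 in Torin1 and 74.6 in Scram. The counting intervals of all 4 ratios include 1. Over all 69 members the counting interval lay entirely below 1 for 40 (background 21.3%) and entirely above 1 for 0 (background 19.9%). In RNA-seq it lay below 1 for 2 members and above 1 for 3, at backgrounds of 5.23% and 7.13%.

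**Figure D2:**
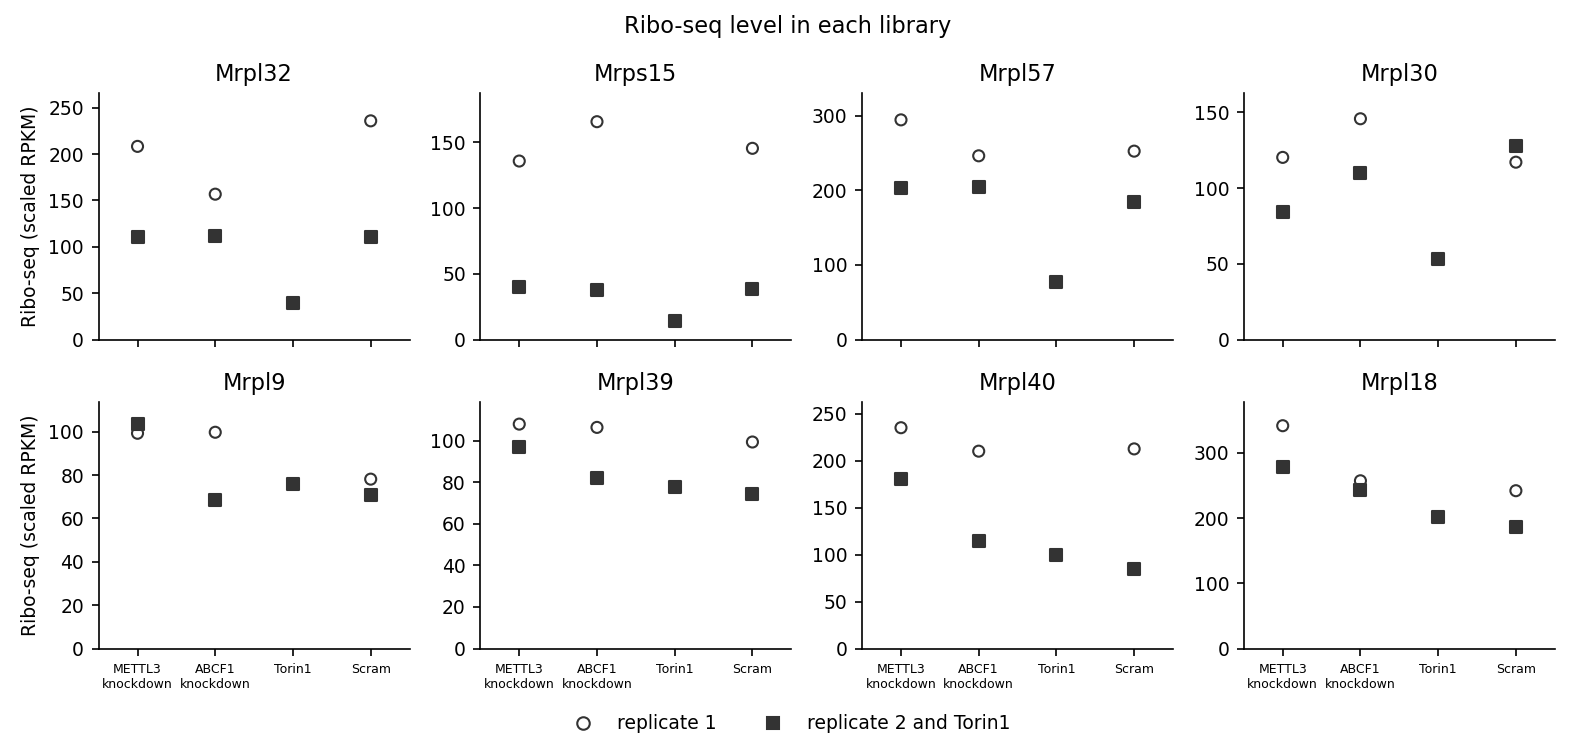
Ribo-seq level in scaled RPKM (vertical axes start at 0) in each of the 7 libraries, for the 4 members with the lowest (top row) and the 4 with the highest (bottom row) Torin1 difference among members listed in every library. Open circles are replicate 1, filled squares replicate 2 and Torin1. In the top row Torin1 is the lowest library, for example 39.4 against 111 for Mrpl32.

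Promoter sequence is shown for 4 of these genes, 3 of the lowest and 1 of the highest, because they hold letters that match sites of factors known to drive nuclear genes for mitochondrial proteins. Each run covers 95 bases before the transcription start and the first 30 bases of the transcript, 5′ to 3′ on the gene's strand, from the RefSeq promoter table (GRCm38.p6), and capitals mark the motifs. Mrpl32 is chr13:14613008-14613132 on the minus strand, Mrpl30 chr1:37890382-37890506, Mrpl57 chr14:57826144-57826268 and Mrpl9 chr3:94443241-94443365, these 3 on the plus strand. Their annotated starts lie 22, 0, 5 and 1 nt from the start of the kept transcript.
Mrpl32: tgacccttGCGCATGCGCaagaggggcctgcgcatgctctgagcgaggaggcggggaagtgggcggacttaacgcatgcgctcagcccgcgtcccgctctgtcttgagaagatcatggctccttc
Mrpl30: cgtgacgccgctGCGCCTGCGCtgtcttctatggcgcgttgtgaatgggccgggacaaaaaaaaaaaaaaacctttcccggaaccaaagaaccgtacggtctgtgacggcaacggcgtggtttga
Mrpl57: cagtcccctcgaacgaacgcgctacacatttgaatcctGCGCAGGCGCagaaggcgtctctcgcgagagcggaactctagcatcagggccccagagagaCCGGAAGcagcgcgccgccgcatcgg
Mrpl9: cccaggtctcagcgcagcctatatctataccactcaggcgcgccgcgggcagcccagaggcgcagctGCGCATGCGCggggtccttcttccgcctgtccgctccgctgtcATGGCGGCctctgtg
All 4 hold the NRF1 motif (GCGC and TGCGC with 1 base between them) on one strand or the other, starting 87, 83, 57 and 28 bases before the start. Mrpl57 adds the ETS motif CCGGAAG of the GABPA type and Mrpl9 the YY1 motif ATGGCGGC, whose first letter is base 16 of the transcript, while the ETS motif starts at base 5 after the start of Mrpl57. The genes shown were picked for their motifs. Of those not shown, Mrpl39 (among the highest) also held NRF1 and Mrpl18 held ETS in the wider windows counted below. Mrps15 (among the lowest) and Mrpl40 held none of the motifs. A tie between motifs and the Torin1 difference was not tested.

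Of the 78 members 69 matched a promoter of the table, which gives 300 bases, 250 before the start and 50 after it. Searching both strands, the NRF1 motif was in 13 of the 69 promoters (18.8%) and in 9.8% of all 11013 promoters matched to genes of these files. The ETS motif was in 25 (36.2%) against 17.3% of all, and the YY1 motif in 12 (17.4%) against 4.8%. Among 63 promoters of cytosolic ribosomal proteins the shares were 7.94% for NRF1, 36.5% for ETS, which is close to the members' share, and 6.35% for YY1. Each motif was counted on its own, whether or not it overlapped another. A start with C followed by 4 bases that are each C or T, read on the gene's own strand only, as in a terminal oligopyrimidine tract, was found in 0 of 69 member promoters. It was found in 12 of 63 for cytosolic ribosomal proteins (19%) and in 2.42% of all. Nearly all mRNAs for cytosolic ribosomal proteins are known to carry the tract, so this search misses most tracts. The count of 0 does not show that members lack it. A match is a description of letters, and an annotated start can differ from the start used in these cells. Of the 78 members, 21 (26.9%) had a listed gene on the opposite strand starting within 1000 nt upstream, against 9.64% of all genes, and Mrps11 and Mrpl46 on chromosome 7 start 30 nt apart.

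Coding length moved with the Torin1 difference. Across members the correlation of the Ribo-seq difference with log coding length was 0.46 (Pearson) and 0.42 (Spearman, n = 69 genes in 1 pair of libraries), and across all genes 0.35 and 0.39 (n = 8971). Members are short, with a median coding length of 585 nt against 1386 nt over all genes with a coding sequence. Among genes under 600 nt the median difference was -0.65 for 34 members and -0.39 for 1042 genes that are neither members nor cytosolic ribosomal proteins. At 600 to 1199 nt it was -0.34 for 31 members and -0.16 for 2572 other genes. In both length classes the members had the lower median. The part of length in the members' values was not tested.

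No member passed the test across all genes in either single assay. The Torin1 labels give no replicate number. In the fits with a replicate block Torin1 was placed with replicate 2, the set its libraries fell into, so its block results depend on that placement. In limma on 7 Ribo-seq libraries without a replicate block 0 of 8986 genes (0%) had an adjusted p under 0.05, and the lowest adjusted p of a member was 0.855. At an unadjusted p under 0.05 there were 6 members, all lower, at a background of 4.72%. With the replicate number as a block, limma called 119 genes (1.32%), 108 of them lower, and again 0 members. Mrpl32 came closest, at -1.60 (standard error 0.29, adjusted p = 0.0586 in limma with the block), followed by Mrps15 at -1.36 (0.27, adjusted p = 0.0828) and Mrpl57 at -1.27 (0.26, adjusted p = 0.0866). At an unadjusted p under 0.05 the block gave 22 members, all lower, at a background of 13.1%. In RNA-seq limma called 0 genes without the block and 12 with it (0.137%), none of them members. At an unadjusted p under 0.05 there were 1 member without the block (background 2.59%) and 6 with it (background 5.47%) in RNA-seq.

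For translational efficiency limma called 0 genes without the block and 62 with it (0.746%), 1 of them a member. That member, Mrpl41, a mitochondria-specific protein of the large subunit, had a difference of 3.82 (standard error 0.65, adjusted p = 0.0468 in limma with the block). Mrpl41 was not listed in Torin1 RNA-seq and was set to 0 there, against 14.6 scaled RPKM (38 reads) in Scram replicate 2. Its ratio difference thus depends on the pseudocount and on a list that leaves out low transcripts. Its Ribo-seq levels were 40.2 in Torin1 and 58.7 in Scram replicate 2. At an unadjusted p under 0.05 there were 4 members without the block (background 3.51%) and 8 with it, 7 of them lower (background 8.39%). The lowest translational efficiencies of members with reads in every library were those of Mrpl32 at -1.90, Mrpl22 at -1.52, Mrps15 at -1.25 and Mrpl30 at -1.18. Mrpl22, a protein that lines the exit tunnel, had 94.8 scaled Ribo-seq RPKM in Torin1 and 138 in Scram replicate 2. It had 38.5 in Torin1 RNA-seq (26 reads) and 19.0 in Scram RNA-seq (46 reads), so both assays enter its low ratio.

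The scaling bears on the size of these values. RPKM are shares of a library with or without scaling, so a change common to all mRNAs cannot be seen in either. Without scaling, the median over all genes was 0.18 higher in Torin1 Ribo-seq and 0.38 higher for the ratio, and the members' medians were -0.30 and -0.05. Relative to all genes the members were then lower by 0.48 and 0.43. Unscaled, 51 of 69 members were lower in Ribo-seq and 36 of 69 for the ratio (73.9% and 52.2%), against 35.3% and 25.7% of all genes. Quantile normalization gave members' medians of -0.30 and -0.25, and the mean of both Scram libraries as the reference gave -0.79 and -0.71.

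**Figure D3:**
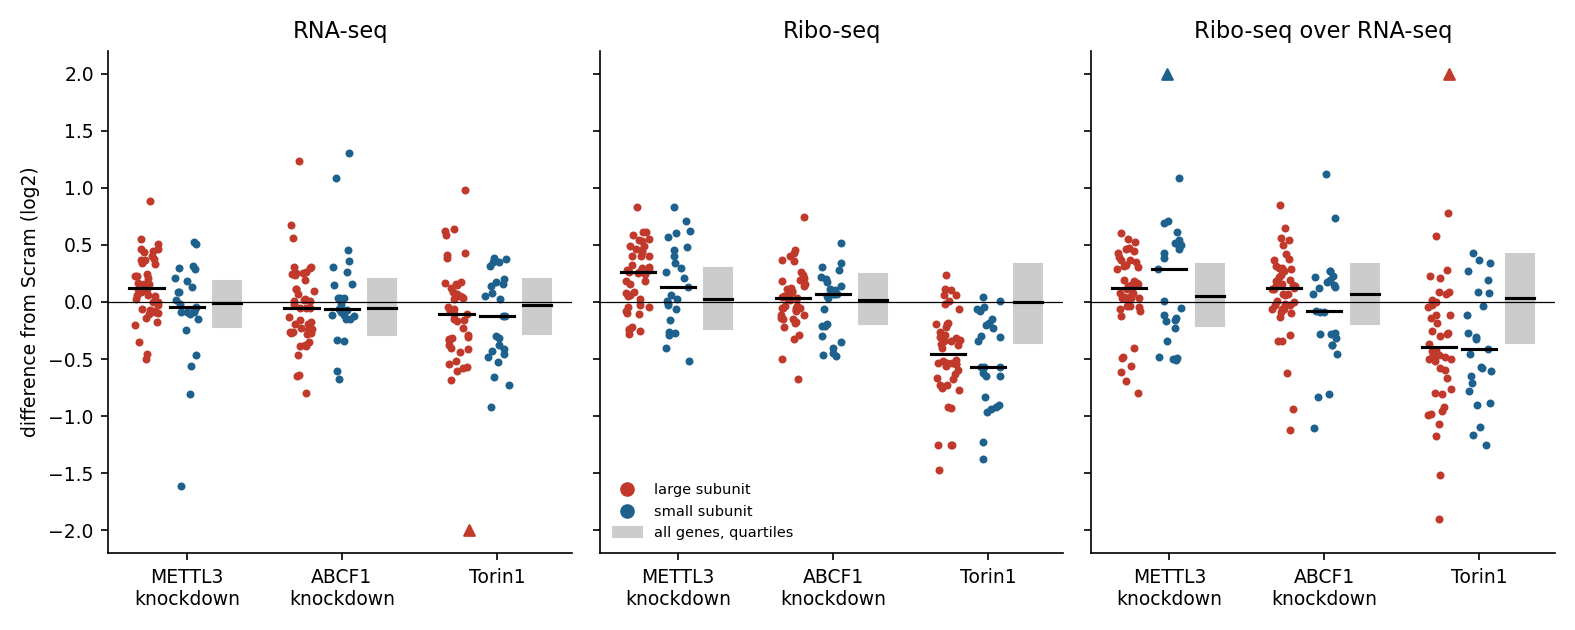
Log2 difference from Scram of each tested member, by subunit, for METTL3 knockdown, ABCF1 knockdown and Torin1, in RNA-seq, Ribo-seq and their ratio. Points are members (means of 2 replicates for the knockdowns), bars are medians, grey boxes span the quartiles of all genes tested, and triangles at the edge stand for Mrps36 in METTL3 knockdown and Mrpl41 in Torin1, which lie beyond it. The Torin1 Ribo-seq medians of the large (-0.46) and small subunit (-0.57) lie below the quartile box of all genes.

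In METTL3 knockdown, ribosome occupancy of the members was somewhat higher than in Scram. In Ribo-seq 36 of 69 members (52.2%) were higher in both replicates, against 30.6% of all genes, and 9 (13.0%) were lower in both, against 25.8%. The median difference was 0.26 (0.16 and 0.26 in replicates 1 and 2), against 0.03 over all genes. In RNA-seq 24 of 70 members were higher in both replicates (34.3%, background 25.8%), with a median of 0.08, which was -0.03 in replicate 1 and 0.25 in replicate 2. The ratio had a median of 0.14 against 0.05 over all genes, with 31 of 69 members higher in both replicates (44.9%, background 31.0%). For the ratio 17 members were lower in both (24.6%), close to the background of 23.6%. In replicate 1 the ratio median was 0.18 over members and 0.03 over all genes, but in replicate 2 it was 0.05 over both. Cytosolic ribosomal proteins had a Ribo-seq median of 0.18.

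The large subunit had a Ribo-seq median of 0.26, with 25 of 44 members higher in both replicates and 4 lower. The small subunit had 0.14, with 11 of 25 higher and 5 lower. In replicate 1 the medians were 0.19 for the large and 0.0053 for the small subunit, and in replicate 2 they were 0.27 and 0.24, so the gap was 0.19 in replicate 1 and 0.03 in replicate 2. Mitochondria-specific proteins had a median of 0.27 and those of bacterial type 0.18. These group medians differ by less than the quartile range of the members, -0.03 to 0.45.

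Mrpl36, a bacterial-type protein of the large subunit, had 813 and 200 scaled RPKM in METTL3 knockdown and 425 and 120 in Scram, replicates 1 and 2. Its difference was 0.83 (standard error 0.20, adjusted p = 0.182 in limma with the block). Mrps33, a mitochondria-specific protein of the small subunit, had 542 and 219 in the knockdown and 219 and 170 in Scram. Mrps23, also mitochondria-specific, had 169 and 121 in the knockdown and 117 and 65.4 in Scram. All 3 genes were above Scram in both replicates, which was a condition of their choice and is no separate result. With the replicates pooled, the knockdown and Scram libraries overlapped for Mrpl36 and Mrps33. For Mrps23 they did not, but the share of all genes without overlap was not counted, so this cannot be weighed.

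At the other end, Mrps6 had 240 and 78.4 scaled RPKM in METTL3 knockdown and 279 and 140 in Scram, and it was low in RNA-seq too, at 9.84 and 13.2 against 20.6 and 20.8. Mrps22 had 41.9 and 42.3 in the knockdown and 65.8 and 47.9 in Scram. Mrpl44, a large-subunit protein which carries a ribonuclease III fold, had the highest RNA-seq difference, at 0.88, with 12.3 and 14.3 in the knockdown and 7.03 and 6.51 in Scram. Its ribosome occupancy differed between replicates. It was lower in replicate 1, with 43.1 in the knockdown and 70.9 in Scram, and higher in replicate 2, with 67.6 and 36.4. The RNA-seq value of Mrps36, at a difference of -1.61, rests on a library where it was not listed and was set to 0, METTL3 knockdown replicate 2.

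**Figure D4:**
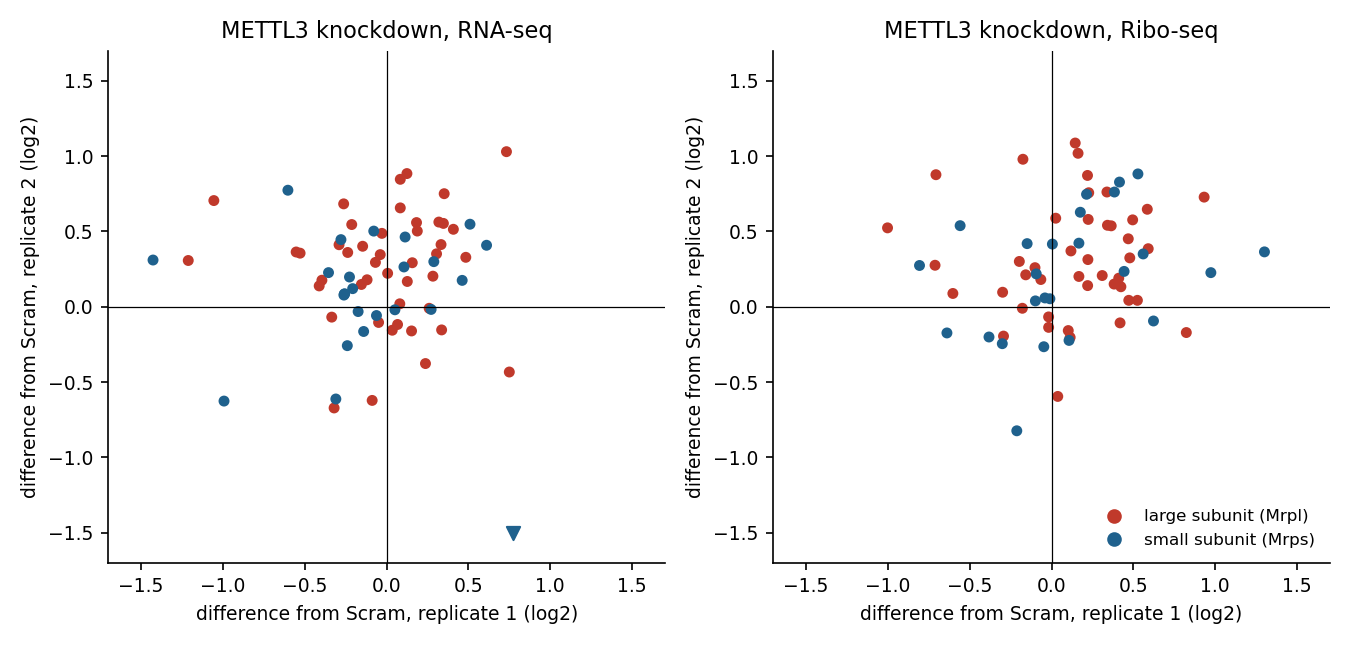
Log2 difference of METTL3 knockdown from Scram in replicate 1 (horizontal) and replicate 2 (vertical) for each tested member, RNA-seq left and Ribo-seq right. The triangle at the edge is Mrps36, which was not listed in METTL3 knockdown replicate 2 RNA-seq and was set to 0 there. In Ribo-seq 36 of 69 members lie above 0 in both replicates and 9 below 0 in both.

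The 2 replicates ordered the members only loosely. Over members the METTL3 differences of replicate 1 and 2 correlated at 0.16 (Pearson) and 0.24 (Spearman) in Ribo-seq (n = 69 genes), beside 0.27 and 0.23 over all 8986 genes. In limma 0 members were called in any assay, and at an unadjusted p under 0.05 there were 1 in RNA-seq (background 0.856%), 0 in Ribo-seq (3.72%) and 0 for the ratio (0.505%). With the replicate block 0 members were called either, and 1 gene in all in Ribo-seq (0.0111%). At an unadjusted p under 0.05 the block gave 9 members in Ribo-seq (13.0% of them, background 13.7%), all higher, 4 in RNA-seq (background 4.22%) and 1 for the ratio (background 3.87%).

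In ABCF1 knockdown, the members' medians were close to those of all genes. The Ribo-seq median was 0.04 (all genes 0.02), with 19 of 69 members higher in both replicates (background 28.5%) and 12 lower (background 23.2%). The RNA-seq median was -0.06 (all genes -0.05), with 18 of 70 lower in both (background 30.0%) and 7 higher (background 22.3%). The ratio had a median of 0.11 (all genes 0.07), with 20 of 69 higher in both (background 32.1%). Cytosolic ribosomal proteins differed from that, with an RNA-seq median of -0.33 and a ratio median of 0.38.

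Mrps28, a small-subunit protein, combined higher occupancy with lower RNA. It had 270 and 199 scaled Ribo-seq RPKM in ABCF1 knockdown and 179 and 147 in Scram, and 9.26 and 7.91 in knockdown RNA-seq against 15.0 and 12.2 in Scram. Its translational efficiency difference was 1.12 (standard error 0.29, adjusted p = 0.996 in limma with the block). Mrps23 had 8.56 and 11.6 in knockdown RNA-seq and 14.4 and 19.1 in Scram, with 122 and 67.9 in knockdown Ribo-seq and 117 and 65.4 in Scram. Its Ribo-seq level was thus near Scram in each replicate although its RNA was lower in both.

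Mrpl33 was low in both assays, at 342 and 221 scaled Ribo-seq RPKM in ABCF1 knockdown and 480 and 315 in Scram. In RNA-seq it had 2.62 and 3.32 in the knockdown and 6.40 and 5.35 in Scram. Mrpl3 had the highest mean Ribo-seq difference, 0.74, which came from replicate 1 alone, with 129 in the knockdown and 46.4 in Scram, and with 107 in the knockdown and 104 in Scram in replicate 2. Mrpl2, which sits near the peptidyl transferase centre, had the lowest mean difference, -0.67. Its replicate 1 levels were 3.15 in the knockdown and 8.22 in Scram, and its replicate 2 levels 172 in the knockdown and 197 in Scram, so the kept transcript was hardly read in the first set.

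In limma 0 members were called in ABCF1 knockdown in RNA-seq, Ribo-seq or the ratio, with or without the replicate block, at a background of 0% in each. At an unadjusted p under 0.05 the block gave 5, 1 and 2 members, at backgrounds of 6.64%, 7.79% and 3.55%. Without the block the counts were 0, 0 and 1, at backgrounds of 1.14%, 1.86% and 0.493%. The lowest adjusted p of a member in Ribo-seq was 0.638 with the block. Leaving out replicate 2 moved the Ribo-seq median to -0.04 and the ratio median to 0.01.

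In ABCF1 knockdown RNA-seq replicate 2, 3 members were far above every other library of their set, and they were singled out after their values were seen. Mrps26 had 121 scaled RPKM there and 9.76 to 15.4 in the other second-set libraries. Mrps35 had 141 there and 14.9 to 20.6 elsewhere, and Mrpl35 had 82.3 there and 5.98 to 10.1 elsewhere. In that library 77 of 7553 genes (1.02%) were at least 4-fold above the others, against 0 or 1 gene in each other RNA-seq library of the set. The Ribo-seq levels of the same genes in that replicate, 143, 88.2 and 108, lay inside the range of their other libraries. The mean RNA-seq differences of 1.09, 1.31 and 1.24 for Mrps26, Mrps35 and Mrpl35 rest on this 1 library.

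In Scram cells, members were read by ribosomes far above their RNA level. The members' median level was 191 and 120 scaled RPKM in Ribo-seq and 15.0 and 15.2 in RNA-seq, in replicates 1 and 2. The log2 ratio of Ribo-seq to RNA-seq had a median of 3.28 and 2.68 over members and 1.28 and 1.35 over all 8310 genes tested in both assays. It was 2.62 and 2.47 over cytosolic ribosomal proteins. By subunit it was 3.35 and 2.85 for the large and 3.09 and 2.46 for the small subunit, each above the upper quartile of all genes, 2.29 and 2.10. The ratio divides a value per coding length by a value per transcript length, and the members' Ribo-seq level was lower at greater coding length (Pearson -0.44 and -0.56, Spearman -0.53 and -0.58, n = 69 genes). No test was made, since members are not replicates.

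**Figure D5:**
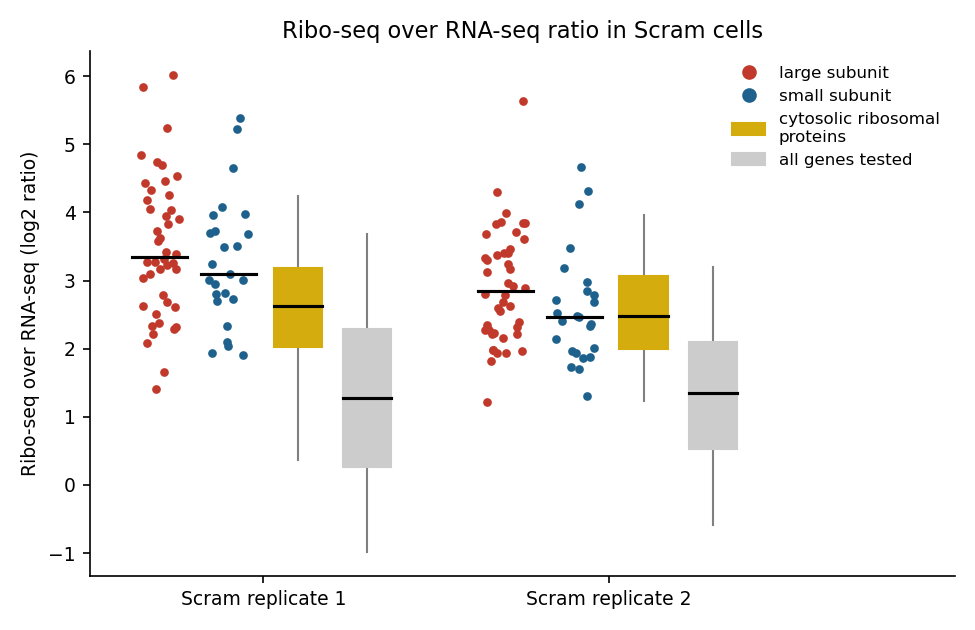
Log2 ratio of Ribo-seq to RNA-seq level in Scram replicates 1 and 2. Points are members by subunit with their median, boxes span the quartiles of 59 cytosolic ribosomal protein genes and of all 8310 genes tested, with lines to the 5th and 95th percentile. The member medians, 2.46 to 3.35, lie above the box of all genes in both replicates.

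In Ribo-seq the highest member was Mrpl52, with 616 and 362 scaled RPKM in Scram replicates 1 and 2, followed by Mrpl14 (629 and 247), Mrpl33 (480 and 315), Mrpl34 (559 and 230) and Mrpl13 (506 and 254). The spread of each between replicates exceeds the gap to its neighbours, so these 5 cannot be ordered. The lowest were Mrpl48 (14.7 and 41.3), Mrpl23 (14.6 and 45.6), Mrpl37 (46.2 and 32.8), Mrps31 (56.9 and 40.6) and Mrps27 (64.6 and 42.5). All 5 lay below all of the highest 5 in both replicates, which is largely given by their choice on the mean of these libraries. Levels of the 2 replicates correlated at 0.63 (Pearson) and 0.71 (Spearman) over members.

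Mrpl33, of bacterial type, had the highest ratio at 6.02 and 5.64, with 6.40 and 5.35 scaled RPKM in RNA-seq. The kept Mrpl33 transcript, of 2178 nt with a coding length of 324 nt, is annotated as a target of nonsense-mediated decay, and its values may not describe the protein-coding mRNA of the gene. Mrps14 (5.22 and 4.67), Mrps25 (5.39 and 4.31) and Mrpl34 (5.84 and 3.71) came next. The lowest ratios were those of Mrpl37 (1.66 and 1.22), Mrpl42 (1.40 and 1.96), Mrps9 (1.90 and 1.88) and Mrps27 (2.09 and 1.86). These 4 lay below each of the 4 highest by over 1 log2 unit in both replicates. As both ends were picked on the mean of these replicates, such a gap is largely given by the choice.

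Mrpl12, the stalk protein that in human cells is also reported to bind the mitochondrial RNA polymerase, had 225 scaled Ribo-seq RPKM in Torin1 and 298 in Scram replicate 2, a ratio of 0.754 (counting interval 0.654 to 0.866). In METTL3 knockdown Mrpl12 had 373 and 546, against 320 and 298 in Scram. Mrpl11, which sits at the base of that stalk, had 125 in Torin1 and 194 in Scram replicate 2. Mrpl58, a peptidyl-tRNA hydrolase built into the large subunit, had 90.2 in Torin1 and 131 in Scram replicate 2.

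Of the Mrps18 paralogs, Mrps18a (large subunit by structure) had 88.2 scaled Ribo-seq RPKM in Torin1 and 173 in Scram replicate 2, and Mrps18b had 145 in Torin1 and 223 in Scram. Mrps18c had no second-set value for its kept transcript, with 262 in METTL3 knockdown, 162 in ABCF1 knockdown and 184 in Scram of replicate 1. Mrps30, the other protein placed in the large subunit, had 29.1 in Torin1 and 33.5 in Scram replicate 2. Mrps12, a protein of the decoding centre, had 78.1 in Torin1 and 70.4 in Scram. Mrps36, the dehydrogenase subunit, had 144 in Torin1 and 276 in Scram replicate 2, a difference of -0.94.

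The 5 mitoribosomal proteins with other symbols (Dap3, Ptcd3, Chchd1, Aurkaip1 and Gadd45gip1) had a Torin1 Ribo-seq median of -0.22, with 3 of 5 lower. Gadd45gip1 was the lowest of them, with 131 scaled RPKM in Torin1 and 201 in Scram replicate 2, and Aurkaip1 the highest, with 200 in Torin1 and 185 in Scram. The 15 tested mitochondrial translation factors had a median of 0.02, with 7 lower, and the 22 tested assembly factors 0.19, with 6 lower, beside the 49.8% of all genes. Among the factors Tufm, the elongation factor that brings aminoacyl-tRNA, had the lowest difference, -2.13, but its level was 0 in Torin1 and 3.37 in Scram replicate 2. Of the assembly factors Mrm1, a ribosomal RNA methyltransferase, had 21.6 in Torin1 and 2.38 in Scram. None of these genes passed limma, and the difference between these lists and the members was not tested.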

How the data were processed

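The deposited files give 1 RPKM value per transcript (reads scaled by length and library size, as the authors computed them) for 14 libraries. The submitters' processing notes name cutadapt, Bowtie and GRCm38, without versions. Depths were derived from the steps between values: 98.7 to 98.8% of Ribo-seq values and 80.4 to 85.4% of RNA-seq values were whole reads within 0.02. Of 22453 transcript identifiers 22356 matched GENCODE M21. The kept transcript was treated as missing in a library set that listed the gene under another transcript only, and otherwise as 0 where unlisted. No columns of other series were present (0).

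Genes listed in at least 0.5 of the libraries with a mean RPKM of at least 1 were scaled to a common median per assay and tested as log2(scaled RPKM + 1) in limma 3.58.1 (R 4.3.3), with Benjamini-Hochberg adjustment over all genes and a threshold of 0.05. The ratio of Ribo-seq to RNA-seq was an interaction in 1 model over both assays. Same-numbered libraries deviated together (their deviations correlated at 0.774 to 0.848 for RNA-seq libraries and 0.837 to 0.887 for Ribo-seq libraries), so the numbers pair the libraries as a feature of the data, and the fit with the replicate as a block is given where it changed a count. Torin1, whose labels give no number, was placed in the block of replicate 2 because of how its files list transcripts. Residual degrees of freedom were 3 per assay and 6 for the ratio, and 2 and 4 with the block. On simulated data with 200 changed genes, the fit without the block called 0% of 4-fold changes. With the block it called 94% of 4-fold and 39% of 2-fold changes for METTL3 knockdown Ribo-seq and 70% and 15% for Torin1 Ribo-seq, over 8986 genes. For Torin1 ratios it called 11% and 0%, over 8310 genes.

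Members named were those called in any fit, the 4 highest and 4 lowest of each comparison (listed in every library and moved alike in both replicates), the 5 highest and lowest Scram levels, the 4 highest and lowest Scram ratios, and 10 chosen for their role. The members and lists were chosen with earlier results of these data known. Alternatives were other scalings, pseudocounts, filters, transcript summing, a structural subunit assignment, another Scram reference, left-out libraries and the replicate block. Figures were drawn with matplotlib 3.10.9.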

Additional observations from a re-analysis of the deposited data

How the results depend on the processing

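RNA-seq depth (a median of 20 to 81 reads per member) was low, and Torin1 rests on 1 library per assay. No result changed sign past a test. The replicate block changed the number of genes called in Torin1 to 119 in Ribo-seq, 12 in RNA-seq and 62 for the ratio, the members called for the ratio to 1, and the genes called in METTL3 knockdown Ribo-seq to 1, each against 0. It changed no other call. A pseudocount of 0.1 gave 2 called genes in Torin1 RNA-seq and 51 for the ratio, and no filter on low values gave 61 in Ribo-seq and 43 for the ratio. Fits with a library left out were made without the block, which calls 0 genes on all libraries, so they do not bear on these counts (0 called genes in each).

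The Torin1 Ribo-seq median of members (-0.51) was -0.30 without scaling, -0.30 with quantile normalization, -0.36 with upper quartile scaling, -0.58 with no filter, -0.42 with unlisted transcripts at 0 (an alternative chosen after seeing the data) and -0.79 against both Scram libraries. The ratio median (-0.41) was -0.050, -0.25, -0.26 and -0.56 under the same first 4 settings and -0.71 against both Scram libraries. The METTL3 Ribo-seq median ranged between 0.16 and 0.26 without 1 replicate, and the METTL3 ratio median (0.14) between 0.053 and 0.18. The ABCF1 medians ranged between -0.14 and -0.024 in RNA-seq, -0.036 and 0.060 in Ribo-seq and 0.013 and 0.078 for the ratio. Without scaling the ABCF1 medians were -0.18 in RNA-seq and 0.25 for the ratio, which was 0.052 at a mean RPKM of at least 5. The excess of the Scram ratio of members over all genes, 1.69, was 2.25 with no filter.

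The sign of the difference between the large and small subunit depended on the setting in ABCF1 knockdown, in Torin1 and for the METTL3 ratio. In METTL3 knockdown Ribo-seq (0.13) the difference was 0.033 to 0.19 without 1 replicate. In METTL3 knockdown RNA-seq (0.17) it was 0.13 with quantile normalization, 0.13 with a pseudocount of 5, 0.10 with summed transcripts, 0.14 with unlisted transcripts at 0 and 0.21 to 0.24 without 1 replicate. For the METTL3 ratio (-0.17) it was -0.22 with a pseudocount of 0.1, 0.0060 with 5, -0.053 at a mean RPKM of at least 5, -0.0064 for members listed in every library, 0.12 with summed transcripts, 0.037 with unlisted transcripts at 0, -0.022 by structure and -0.073 to -0.023 without 1 replicate. In ABCF1 Ribo-seq (-0.03) it was -0.16 to 0.019 without 1 replicate. For the ABCF1 ratio (0.20) it was 0.12 for members listed in every library, 0.063 with summed transcripts, 0.042 with unlisted transcripts at 0, 0.13 by structure and -0.011 to 0.083 without 1 replicate. In Torin1 RNA-seq (0.02) it was -0.058 at a mean RPKM of at least 5, 0.10 against both Scram libraries and 0.14 by structure. In Torin1 Ribo-seq (0.11) it was -0.071 with summed transcripts, -0.11 with unlisted transcripts at 0 and -0.15 against both Scram libraries. For the Torin1 ratio (0.02) it was 0.10 with quantile normalization, 0.10 at a mean RPKM of at least 5, -0.051 for members listed in every library, -0.059 with summed transcripts, -0.066 with unlisted transcripts at 0, 0.23 against both Scram libraries and -0.11 by structure. The cause of these changes was not tested.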

Other observations

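Neighbouring genes of members on the opposite strand included other genes of mitochondrial function. Mrpl43 starts 116 nt from Twnk, the mitochondrial replicative helicase, and Mrps12 starts 232 nt from Sars2, the mitochondrial seryl-tRNA synthetase. Mrpl18 starts 37 nt from Tcp1, a subunit of the cytosolic chaperonin, and Mrpl32 starts 225 nt from Psma2, a proteasome subunit. These pairs were picked from the 21 after their names were seen.

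In the METTL3 knockdown the 22 assembly factors tested had a Ribo-seq median of 0.16, with 9 of 22 higher in both replicates and 0 lower, beside 30.6% and 25.8% of all genes. Their median was -0.11 in replicate 1 and 0.46 in replicate 2, so its sign differed between replicates. The 15 translation factors had 0.05 (-0.02 in replicate 1 and 0.37 in replicate 2), with 3 higher and 3 lower. In the ABCF1 knockdown the medians were -0.04 for assembly factors (-0.33 and 0.15 in replicates 1 and 2) and 0.07 for translation factors (-0.15 and 0.06), and both changed sign between replicates.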
